A study of Rattus norvegicus with 16 samples.

Results

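Small RNA sequencing measured the miRNAs of the rat left ventricle 4 weeks after subtotal nephrectomy (5/6Nx) or after a sham operation. The 4 libraries of that week, 2 of sham and 2 of 5/6Nx, were chosen by the week and surgery in their column names and belong to a set of 16 libraries taken at weeks 2, 4, 5 and 7. All rats were male Sprague Dawley animals kept on 0.4% Dyets chow and operated at 10 weeks of age. Each library was made from a pool of 2 to 3 rats, so the animals of a pool cannot be told apart, and the 2 pools of a group carry the letters A and B. The week 4 table listed 894 entries, of which 358 were rat miRNAs (names starting rno-), 150 carried names of other species and 386 were genomic loci. Of the 358 rat miRNAs, 317 were listed in all 4 weekly tables and 306 passed the filter on low counts and were tested; 11 fell under the filter, and 41 were not listed at week 7. Those 41 were scarce, with mean counts of 2.75 to 27.25 in the week 4 libraries.

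In 5/6Nx most of the renal mass is removed, and the heart of such animals is known to respond to pressure load, volume load and uraemia with hypertrophy and fibrosis of the left ventricle. A miRNA is cut from a hairpin precursor whose 5p and 3p arms can each be loaded into an Argonaute protein, and it recognises its target mRNAs mainly through its seed, bases 2 to 8 from the 5′ end. miRNAs with the same seed form a family, and miRNAs whose hairpins lie close together on a chromosome form a cluster that is often transcribed as a single primary transcript. The let-7 family is abundant in adult tissues and is known for restraining genes of early development and proliferation, and its precursors are held back from processing by the RNA-binding protein LIN28.

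The sequences that carry the main result are those of the let-7 family, shown as the mature miRNAs of RefSeq on build GRCr8. All share the seed GAGGUAG, in capitals, and differ by few bases, so that reads of one member can be assigned to another if mismatches are allowed in alignment. The last pair of entries shows the other arm of the let-7d hairpin and an entry read from the opposite strand of that hairpin, each again with bases 2 to 8 in capitals.

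let-7a-5p: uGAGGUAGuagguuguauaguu

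let-7b-5p: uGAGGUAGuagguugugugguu

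let-7c-5p: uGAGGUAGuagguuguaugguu

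let-7d-5p: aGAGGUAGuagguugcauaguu

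let-7e-5p: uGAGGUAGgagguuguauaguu

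let-7f-5p: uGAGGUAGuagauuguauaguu

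let-7i-5p: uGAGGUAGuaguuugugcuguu

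miR-98-5p: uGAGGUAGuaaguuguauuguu

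let-7d-3p: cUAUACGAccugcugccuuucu

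miR-3596b: aACUAUGCaaccuacuaccu

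Counted from 1 at the 5′ end and read against let-7a-5p, let-7d-5p carries U1A and U16C, let-7c-5p A19G, let-7e-5p U9G and let-7f-5p G12A. The other members carry A17G and A19G (let-7b-5p), G11A and A19U (miR-98-5p), and G12U, A17G, U18C and A19U (let-7i-5p). The let-7d hairpin lies at chr17:16322260-16322357 on the plus strand of GRCr8, downstream of the let-7a-1 hairpin at chr17:16320133-16320226. Its whole sequence follows, with both mature arms in capitals, because the arms differed at week 4.

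let-7d hairpin: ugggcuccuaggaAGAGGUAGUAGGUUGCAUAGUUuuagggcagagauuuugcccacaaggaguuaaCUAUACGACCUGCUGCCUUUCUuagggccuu

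The depth of the 4 libraries was 1600062 and 2576642 counts on rat miRNAs in sham pools A and B, and 3509916 and 2326352 in 5/6Nx pools A and B. Sham pool A was the shallowest library. Between 356 and 358 of the 358 rat miRNAs had a count in each library. Levels are given below as CPM, counts scaled to a library total common to all libraries, with TMM factors. Any pair of libraries correlated with r of 0.99 or more over the log2 levels of the miRNAs, which are not independent replicates. miRNAs known from heart muscle were abundant, with miR-133a-3p at 44130 to 60510 CPM and miR-208a-3p at 1013 to 1244 CPM. The liver miRNA miR-122-5p, the neuronal miR-124-3p and the skeletal muscle miR-206-3p were not among the rat miRNAs listed. The 10 most abundant miRNAs were miR-143-3p, miR-22-3p, miR-30a-5p, miR-26a-5p, miR-133a-3p, miR-27b-3p, miR-126a-5p, miR-191a-5p, miR-30e-5p and miR-10a-5p.

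At week 4 few miRNAs were called different between the left ventricles of 5/6Nx and sham rats, and let-7d-5p was the clearest difference. With 2 pools a group and a median SE of 0.26 on the log2 scale, small changes could be missed. edgeR's quasi-likelihood test over all 16 libraries, with Benjamini-Hochberg adjustment over the 306 miRNAs, called 2 entries at an adjusted p under 0.05, which is 0.654% of those tested. Both were lower, and both stand for the same pair of strands, let-7d-5p and miR-3596b. In this fit over all 16 libraries no miRNA was called higher, and DESeq2 and limma-voom over the same libraries called none higher either. At an unadjusted p under 0.05, 22 miRNAs or 7.19% were found, 5 higher (1.63%) and 17 lower (5.56%). These p-values measure the spread between pools, and an exact permutation test of 2 pools against 2 could not give a two-sided p under 0.333.

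let-7d-5p stood at 1569 and 1433 CPM in sham pools A and B and at 924.8 and 775.5 CPM in 5/6Nx pools A and B, from counts of 2378, 3553, 3185 and 1926. The groups did not overlap, and the gap between them was wider than the gap between the pools of either group. The group means were 1501 ± 96.3 CPM in sham and 850.2 ± 106 CPM in 5/6Nx (SD, n = 2 pools). The log2 change was -0.82 ± 0.13 (SE; edgeR adjusted p = 0.00323), a level in sham 1.76 times that in 5/6Nx. The call was lost without either of 2 libraries: without sham pool A the log2 change was -0.74 with an adjusted p of 0.115, and without 5/6Nx pool B it was -0.65 with an adjusted p of 0.342.

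The second called entry, miR-3596b, repeated let-7d-5p. Its 20 bases are the reverse complement of let-7d-5p and lie on the minus strand of the same hairpin. It stood at 1396 and 1292 CPM in sham and at 821.8 and 681.3 CPM in 5/6Nx, with a log2 change of -0.84 ± 0.13 (SE; edgeR adjusted p = 0.00323). The ratio of let-7d-5p counts to miR-3596b counts stayed between 1.11 and 1.17 in all 16 libraries, so the entries are counted here as one signal. How reads on either strand were assigned is not given in the sources used here.

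The 3p arm of the same hairpin did not pass the test. let-7d-3p stood at 316.6 and 313.7 CPM in sham and at 320.3 and 297.1 CPM in 5/6Nx, and the pools of the groups overlapped. Its log2 change was -0.03 ± 0.23 (SE; edgeR adjusted p = 0.978). The ratio of let-7d-5p to let-7d-3p counts within a library needs no scaling between libraries. It was 4.95 and 4.57 in sham and 2.89 and 2.61 in 5/6Nx. Over the 12 libraries of the other weeks this ratio ran from 2.01 to 4.20, so the week 4 sham pools held the highest ratios of all 16 libraries, and the week 4 5/6Nx pools lay inside the range of the other weeks.

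Each of the 8 let-7 family members lay below sham with no overlap of the pools, an order that 28.4% of all miRNAs tested showed. The median log2 change over the 8 was -0.19, beside -0.08 over all 306 miRNAs. With DESeq2 size factors these medians were -0.11 and 0.00, and all 8 members stayed below sham. miR-98-5p turned above sham in 3 of 25 alternative fits. Only let-7d-5p passed the test. The summed level of the 8 members tested was 40150 and 41470 CPM in sham and 35240 and 34700 CPM in 5/6Nx, a log2 ratio of -0.22.

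let-7a-5p had the second largest change of the 8 members tested. It stood at 6567 and 7214 CPM in sham and at 5330 and 5386 CPM in 5/6Nx, and its log2 change was -0.36 ± 0.17 (SE; edgeR adjusted p = 0.601). The other 6 members lay between -0.20 and -0.11. Within the 8 members tested, let-7d-5p made up 3.91% and 3.45% of the counts in sham and 2.62% and 2.24% in 5/6Nx. The share of let-7f-5p, the most abundant member, was 34.6% and 36.2% in sham and 37.6% and 35.7% in 5/6Nx, with overlapping pools. Levels of the members are uncertain where entries share reads: miR-3596a, the reverse complement of let-7a-5p, held 34929 to 69326 counts per library against 9955 to 18355 for let-7a-5p itself. miR-3596a changed by -0.25 on the log2 scale, miR-3596c (the reverse complement of let-7e-5p) by -0.45 and miR-3596d (of let-7f-5p) by -0.37, and none passed the test.

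**Figure D1:**
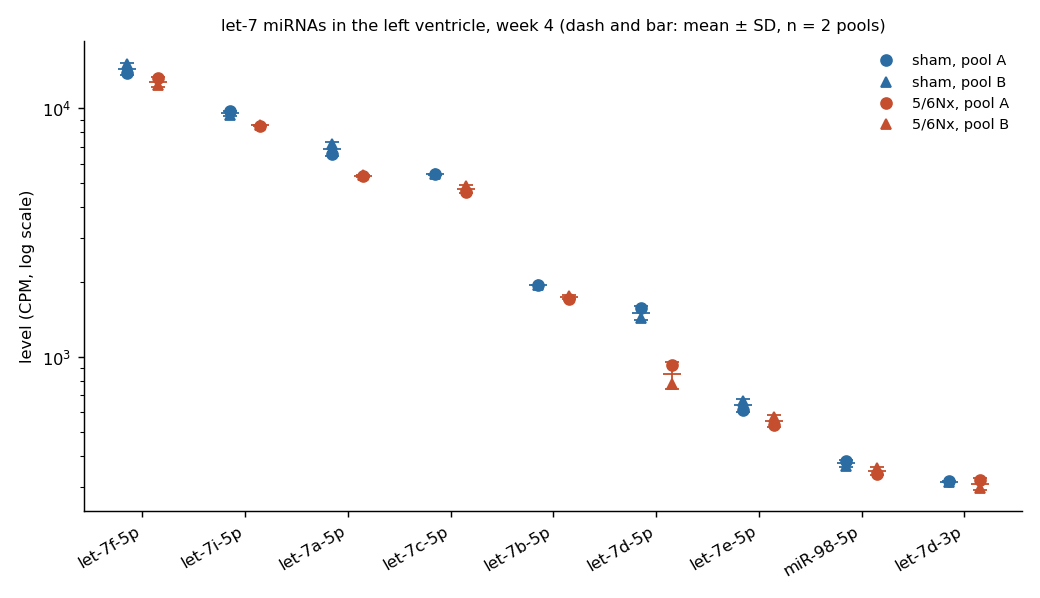
Level in CPM, on a log axis, of the 8 let-7 family members and of the let-7d-3p arm in the 4 week 4 libraries; circles are pool A and triangles pool B, and the dash and bar give the mean ± SD of 2 pools. Each of the 8 members lies lower in 5/6Nx, with the widest gap at let-7d-5p (1501 against 850.2 CPM on average), while let-7d-3p overlaps.

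Across the other weeks let-7d-5p moved in both directions. Its log2 change was -0.40 ± 0.13 at week 2, 0.38 ± 0.13 at week 5 and 0.02 ± 0.13 at week 7 (SE), and none of these passed the test. Sham levels themselves moved between weeks, from 845.2 and 889.7 CPM at week 5 to 1569 and 1433 CPM at week 4, the highest of the 16 libraries. 5/6Nx pool B of week 4 was the lowest of the 16. Each week had its own sham pools, so a level set by the week cannot be told apart from a level set by the 2 pools of that week.

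A second test asked whether the change at week 4 differed from the mean change of weeks 2, 5 and 7. It called 5 of the 306 miRNAs, or 1.63%, beside 29 or 9.48% at an unadjusted p under 0.05. All 5 had a lower change at week 4: let-7d-5p and its mirror miR-3596b, miR-21-3p, miR-34a-5p and miR-223-3p. For let-7d-5p the difference was -0.82 ± 0.15 on the log2 scale (SE; edgeR adjusted p = 0.0119). This list was not stable, with 0 to 25 miRNAs called when single libraries were left out, 25 of them without sham pool B of week 5, and 0 with library sizes that leave out the 5 most abundant miRNAs.

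miR-21-3p is the less abundant arm of the miR-21 hairpin, whose 5p arm is known to rise in stressed and fibrotic mouse hearts. At week 4 it stood at 50.1 and 65.7 CPM in sham and at 41.8 and 39.5 CPM in 5/6Nx, with no overlap, and its log2 change of -0.52 ± 0.31 (SE) had an edgeR adjusted p of 0.826. In the other weeks its log2 change was 1.20, 1.54 and 1.50 at weeks 2, 5 and 7, so week 4 was the only week in which it did not lie above sham. The difference was -1.93 ± 0.37 (SE; edgeR adjusted p = 0.0119).

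miR-34a-5p, known as a p53-induced miRNA linked to cardiac ageing, was below sham at week 4, with 141.2 and 145.5 CPM in sham and 103.1 and 96.2 CPM in 5/6Nx. Its groups did not overlap, and its log2 change of -0.52 ± 0.17 (SE) had an edgeR adjusted p of 0.425. Its changes in the other weeks were 0.38, -0.01 and 0.64, and the difference of week 4 was -0.86 ± 0.20 (SE; edgeR adjusted p = 0.0411).

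miR-223-3p, a miRNA of myeloid blood cells, stood at 49.5 and 65.3 CPM in sham and at 49.9 and 42.3 CPM in 5/6Nx, and its groups overlapped. Its log2 change was -0.32 ± 0.20 (SE; edgeR adjusted p = 0.826) at week 4 and 0.50, 0.39 and 1.19 at weeks 2, 5 and 7. The difference of week 4 was -1.01 ± 0.24 (SE; edgeR adjusted p = 0.0411). The other leukocyte miRNAs did not pass the test at week 4 either: 4 of the 6 on that list were below sham with a median log2 change of -0.08, which is 0.00 with 3 below under DESeq2 size factors.

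**Figure D2:**
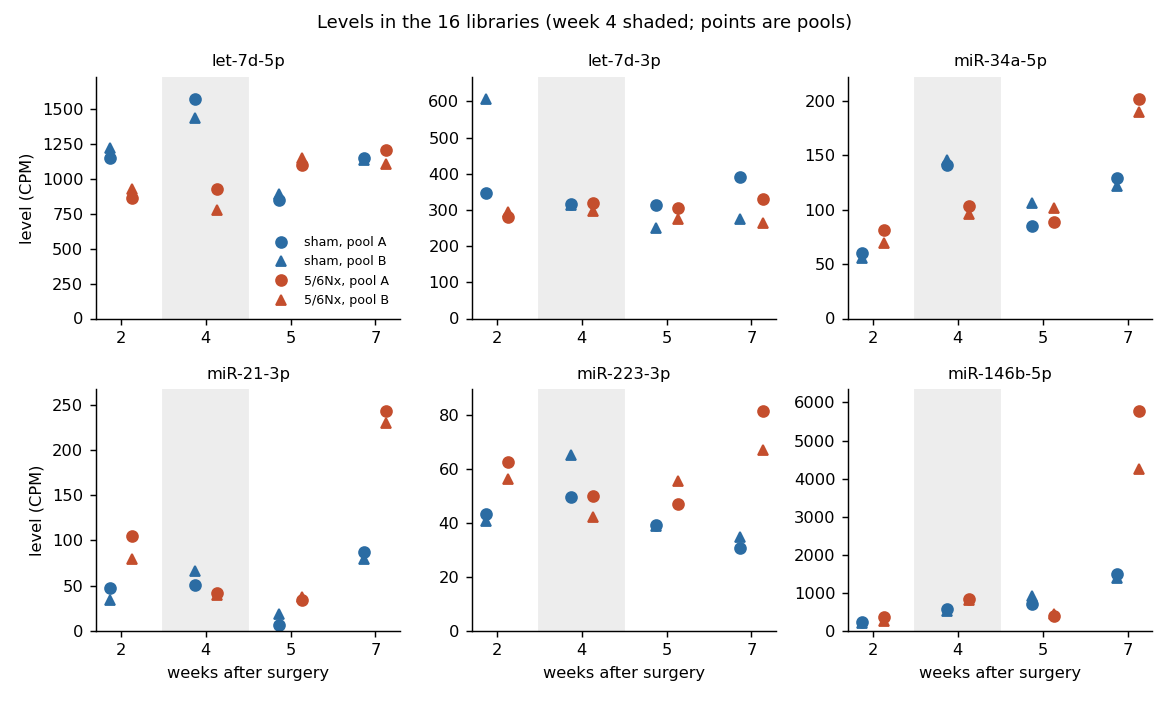
Levels in CPM in all 16 libraries by weeks after surgery, with week 4 shaded, for let-7d-5p, let-7d-3p, miR-34a-5p, miR-21-3p, miR-223-3p and miR-146b-5p; blue points are sham and red points 5/6Nx, circles pool A and triangles pool B. let-7d-5p is highest in the week 4 sham pools (1569 and 1433 CPM), and miR-21-3p is below sham in 5/6Nx at week 4 alone.

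miR-146b-5p, a miRNA induced by NF-kB signalling, had the smallest p-value among the miRNAs above sham. It stood at 577.2 and 509.2 CPM in sham and at 842.1 and 812.1 CPM in 5/6Nx, with no overlap. Its log2 change was 0.61 ± 0.19 (SE), and its edgeR adjusted p of 0.425 missed the threshold in the fit over 16 libraries. When 1 library at a time was left out, the log2 change of miR-146b-5p ran from 0.54 to 0.72, highest without sham pool B of week 5. With the 4 week 4 libraries alone its log2 change was 0.71 with an edgeR adjusted p of 3.28e-05. In the authors' deposited table of week 4, 3 rat miRNAs had an adjusted p under 0.05, which were miR-146b-5p (0.0211), miR-3596b (0.0231) and let-7d-5p (0.0262). Its paralogue miR-146a-5p, with the same seed, stood at 1900 and 1393 CPM in sham and at 1896 and 2355 CPM in 5/6Nx, with overlap and an edgeR adjusted p of 0.826.

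The fit of the 4 week 4 libraries alone called 15 of 301 miRNAs, or 4.98%, 8 above sham (2.66%) and 7 below (2.33%). Its spread came from the 2 pairs of pools alone. Above sham were miR-146b-5p, miR-451-5p, miR-146a-5p, miR-191a-5p, miR-542-3p, miR-21-5p, miR-125b-1-3p and miR-19b-3p. Below sham were let-7d-5p, miR-3596b, miR-6215, miR-532-5p, miR-1-3p, miR-145-3p and miR-423-3p. Some of these rest on a single pool: miR-6215 had counts of 27, 36 and 33 but 2 in 5/6Nx pool B, and the red cell miRNA miR-451-5p stood at 625.2 CPM in 5/6Nx pool A against 354.9, 281 and 321.7 CPM in the other 3 libraries.

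Over all 306 miRNAs, 187 or 61.1% lay below sham and 119 or 38.9% above. With mirror entries, whose counts kept a near fixed ratio in all 16 libraries, counted once, 180 of 298 lay below and 118 above. The split over the 306 depended on scaling: 151 lay below and 155 above with DESeq2 size factors, and 148 below and 158 above with library sizes that leave out the 5 most abundant miRNAs. The quartiles of the log2 changes were -0.25 and 0.13, 26 miRNAs lay below -0.5 and 12 above 0.5. Among the 132 miRNAs at 100 CPM or more, the median size of the log2 change was 0.18, against a median gap between pools A and B of 0.12 in sham and 0.12 in 5/6Nx. In 136 miRNAs, 44.4% of those tested, sham and 5/6Nx pools were apart, and 87 of these lay below sham.

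**Figure D3:**
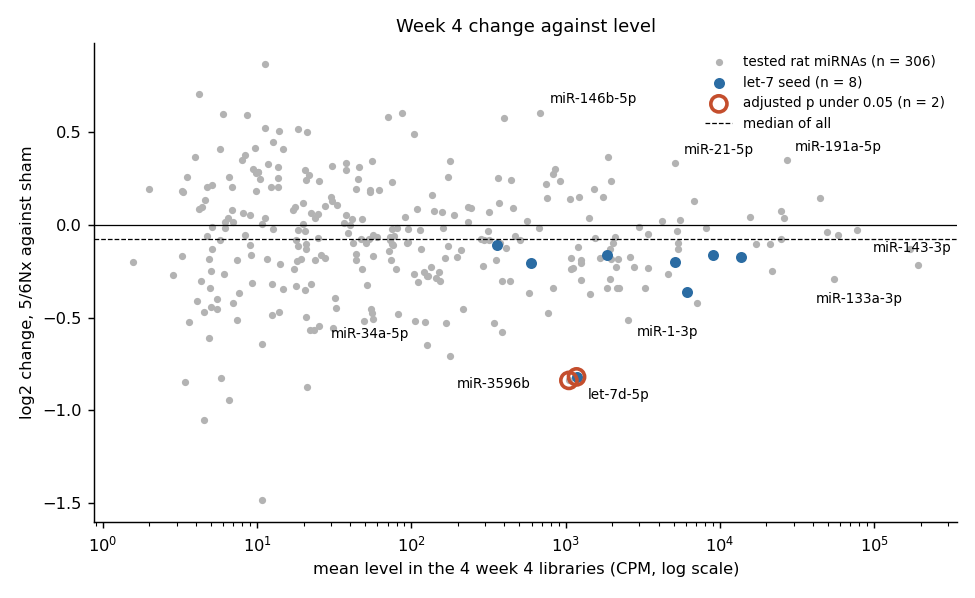
Log2 change of 5/6Nx against sham at week 4 for the 306 tested miRNAs against their mean level in CPM on a log axis; blue points are the let-7 family, red rings the entries past an adjusted p of 0.05, and the dashed line the median of all (-0.08). The 2 ringed entries, let-7d-5p and miR-3596b, lie near 1000 CPM at about -0.8, and scatter widens toward low levels.

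Heart muscle miRNAs were mostly below sham. Of the 6 on the cardiomyocyte list, 5 lay below sham under each scaling, 4 of them with no overlap (28.4% of all miRNAs tested), and the median log2 change was -0.32 (-0.24 with DESeq2 size factors); none passed the test over 16 libraries. Their summed level was 68130 and 68550 CPM in sham and 60500 and 50270 CPM in 5/6Nx. In bulk tissue a smaller share of cardiomyocytes and less of these miRNAs per cell cannot be told apart.

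The cluster of miR-1 and miR-133a, which restrain hypertrophic growth in mice, had all 3 measured members below sham with no overlap, beside 28.4% of all miRNAs tested. miR-1-3p stood at 3001 and 2967 CPM in sham and at 2185 and 1998 CPM in 5/6Nx. Its log2 change was -0.51 ± 0.23 (SE; edgeR adjusted p = 0.572). miR-133a-3p stood at 60510 and 60400 CPM in sham and at 54600 and 44130 CPM in 5/6Nx, a log2 change of -0.29 ± 0.17 (SE; edgeR adjusted p = 0.811). miR-133b-3p, which shares the miR-133 seed but lies in another cluster, was scarce and above sham, at 18.5 and 21 CPM against 24.1 and 23.8 CPM.

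Of the miRNAs encoded within myosin heavy chain genes, 4 of the 5 tested arms lay below sham. miR-208a-3p, from an intron of Myh6, stood at 1160 and 1244 CPM in sham and at 1031 and 1013 CPM in 5/6Nx. The scarce miR-208a-5p arm of that hairpin lay above sham, at 50.1 and 48 CPM against 55.2 and 69.7 CPM, with a log2 change of 0.34 ± 0.33 (SE; edgeR adjusted p = 0.866). miR-208b-3p, from Myh7, overlapped, with 1872 and 2257 CPM in sham and 1343 and 1920 CPM in 5/6Nx. miR-499-5p, from an intron of Myh7b, stood at 1575 and 1656 CPM in sham and at 1311 and 1188 CPM in 5/6Nx, and its 3p arm at 184 and 211.3 CPM against 145.8 and 128 CPM. The log2 changes of the miR-499 arms were -0.37 ± 0.14 and -0.53 ± 0.16 (SE), with edgeR adjusted p of 0.528 and 0.425.

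The miR-29 family, known for repressing collagens and other matrix genes, was below sham in all 3 members under each scaling. The median log2 change was -0.34 (-0.26 with DESeq2 size factors). miR-29a-3p stood at 3662 and 3608 CPM in sham and at 3153 and 2590 CPM in 5/6Nx, with a log2 change of -0.34 ± 0.15 (SE; edgeR adjusted p = 0.601). miR-29c-3p did not overlap either, whereas miR-29b-3p did. The members differ outside the seed AGCACCA, in capitals:

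miR-29a-3p: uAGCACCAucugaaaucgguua

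miR-29b-3p: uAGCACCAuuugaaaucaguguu

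miR-29c-3p: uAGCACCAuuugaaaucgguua

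Of the 4 miRNAs on the fibroblast list, 2 lay above sham. miR-21-5p stood at 4314 and 4661 CPM in sham and at 5510 and 5803 CPM in 5/6Nx, with no overlap. Its log2 change was 0.33 ± 0.14 (SE; edgeR adjusted p = 0.528). The other 3, miR-199a-3p, miR-199a-5p and miR-214-3p, had log2 changes between -0.10 and 0.19, and the signs of the list depend on scaling, with 2 below sham here and 1 below with DESeq2 size factors.

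The family of miR-15 and miR-16 shares the seed AGCAGCA and is known for restraining cell division in the heart muscle of mice. Of its 5 members, 4 lay above sham with no overlap of the pools. Over all miRNAs tested, 44.4% did not overlap in either direction, and 28.4% did not overlap and lay below sham. The median log2 change of the family was 0.15 (0.23 with DESeq2 size factors), and none of the 5 passed the test. miR-195-5p stood at 843.7 and 839.4 CPM in sham and at 973.6 and 1013 CPM in 5/6Nx. miR-16-5p, its most abundant member, stood at 6460 and 6550 CPM in sham and at 6942 and 7273 CPM in 5/6Nx. miR-15b-5p overlapped, and its log2 change of -0.06 turned positive with DESeq2 size factors.

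Other families above sham in every member, under each scaling, were miR-146 (median log2 change 0.49), miR-132 with miR-212 (0.36), miR-19 (0.34), miR-221 with miR-222 (0.29) and miR-103 with miR-107 (0.11). miR-132-3p, which promotes hypertrophy in mice, stood at 17.8 and 12.5 CPM in sham and at 19.8 and 22.9 CPM in 5/6Nx. miR-221-3p stood at 149.1 and 162.9 CPM in sham and at 180.6 and 193.3 CPM in 5/6Nx. Neither passed the test, with edgeR adjusted p of 0.811 and 0.862. In all, 33 seed families had 2 or more measured members, of which 12 lay wholly below sham, 5 wholly above and 16 on both sides. With DESeq2 size factors these counts were 9, 8 and 16.

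Of the families with high summed levels, miR-133 lay below sham through miR-133a-3p, and the sums of miR-30, miR-26 and miR-27 overlapped between the groups. The summed miR-30 family stood at 130300 and 125700 CPM in sham and at 132500 and 123100 CPM in 5/6Nx, with overlap in all 6 members. The miR-26 family summed to 65140 and 63620 CPM in sham and to 65960 and 57930 CPM in 5/6Nx, and its median log2 change of -0.07 is at 0.01 with DESeq2 size factors. The miR-27 family summed to 51400 and 54080 CPM against 50470 and 51680 CPM. miR-22-3p, enriched in muscle, stood at 174400 and 183400 CPM in sham and at 172600 and 154800 CPM in 5/6Nx.

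**Figure D4:**
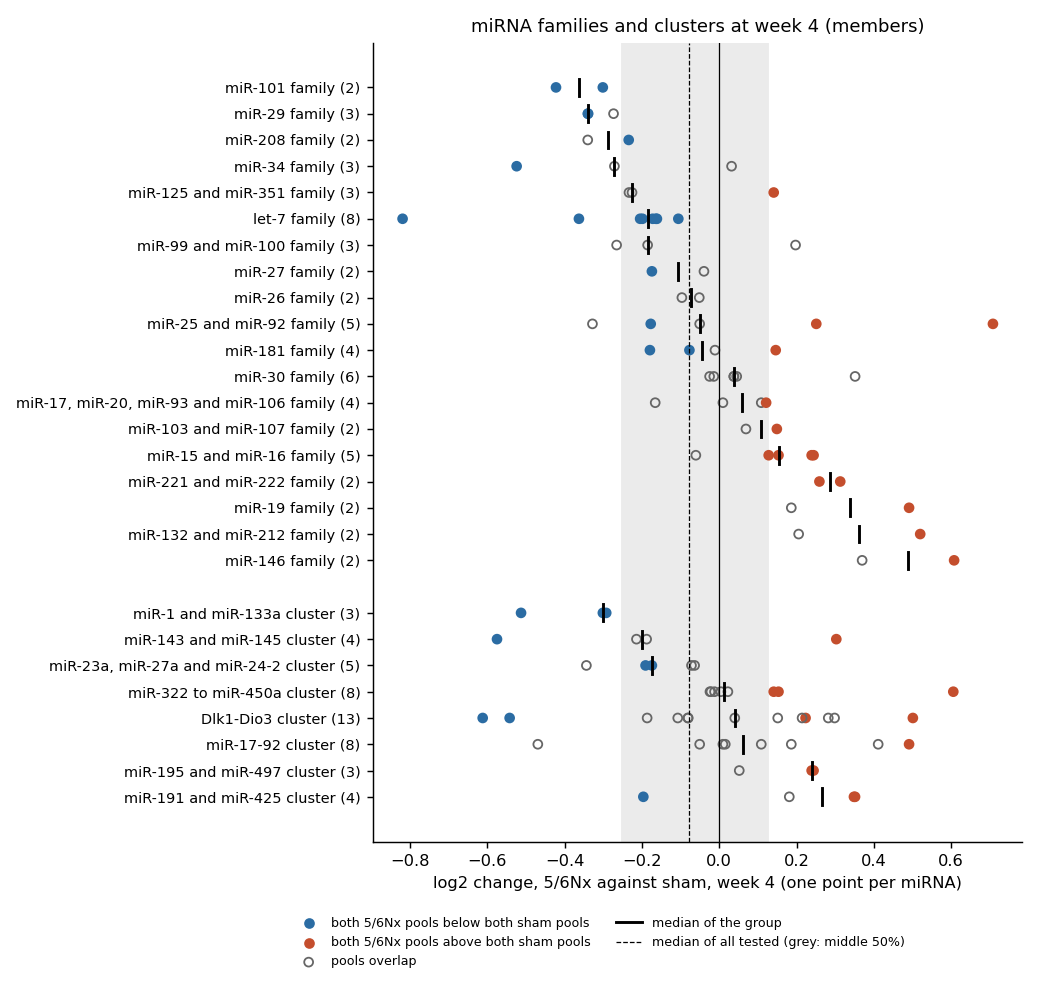
Log2 change of 5/6Nx against sham at week 4 for the members of 19 seed families and 8 genomic clusters, one point per miRNA with the number of members in brackets; filled points did not overlap between groups, black bars are group medians, and the grey band runs between the quartiles of all tested miRNAs. The let-7 and miR-1 and miR-133a members all lie below 0, and those of miR-146, miR-132 with miR-212, miR-19 and miR-221 with miR-222 above.

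Of 26 clusters with 2 or more measured members, 3 lay wholly below sham, 3 wholly above and 20 on both sides. Mature miRNAs encoded in several clusters, such as let-7a-5p and miR-24-3p, are counted in each of them. With DESeq2 size factors the cluster of miR-1 and miR-133a alone (1 of 26) lay wholly below, 4 lay wholly above and 21 on both sides. In the cluster of let-7a-1, let-7f-1 and let-7d, 5 of 6 members lay below sham, but 3 of 6 with DESeq2 size factors, and the median was -0.12. Of these members, let-7a-5p and let-7f-5p are also encoded on other chromosomes, so their levels cannot be assigned to this cluster alone. The miR-143 and miR-145 cluster, known from smooth muscle, had 3 of 4 members below sham. miR-143-3p, the most abundant miRNA of the tissue, stood at 216500 and 197200 CPM in sham and at 201100 and 155500 CPM in 5/6Nx, with overlap. The miR-17-92 cluster had 6 of 8 members above sham with a median of 0.06. The 13 measured members of the imprinted Dlk1-Dio3 cluster had a median of 0.04 and ran from -0.61 for miR-434-5p to 0.50 for miR-541-5p, both scarce.

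Both arms were tested for 73 hairpins. The 73 include pairs with arms that are reverse complements of each other, miR-3065 with miR-338 and miR-3557 with miR-378a, so not all are separate. In 32 both arms lay below sham, in 5 both above and in 36 on different sides. These counts use TMM, with which 61.1% of all 306 miRNAs lay below sham, against 151 of 306 with DESeq2 size factors. In 19 hairpins the log2 ratio of 5p to 3p counts differed by more than 0.5 between the group means. Where counts were high, the widest shifts were those of miR-145, miR-21 and let-7d. For miR-145 the log2 ratio was 0.56 and 0.96 in sham and 1.59 and 1.62 in 5/6Nx, with miR-145-5p at 821.9 and 714 CPM against 952.7 and 941 CPM and miR-145-3p at 558.7 and 368.1 CPM against 315.6 and 305.2 CPM. For miR-21 it was 6.43 and 6.15 in sham and 7.04 and 7.20 in 5/6Nx. For let-7d the shift went the other way, from 2.31 and 2.19 to 1.53 and 1.38. The widest shift of all, -1.24 at miR-221, rests on 10 to 17 counts of miR-221-5p per library.

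**Figure D5:**
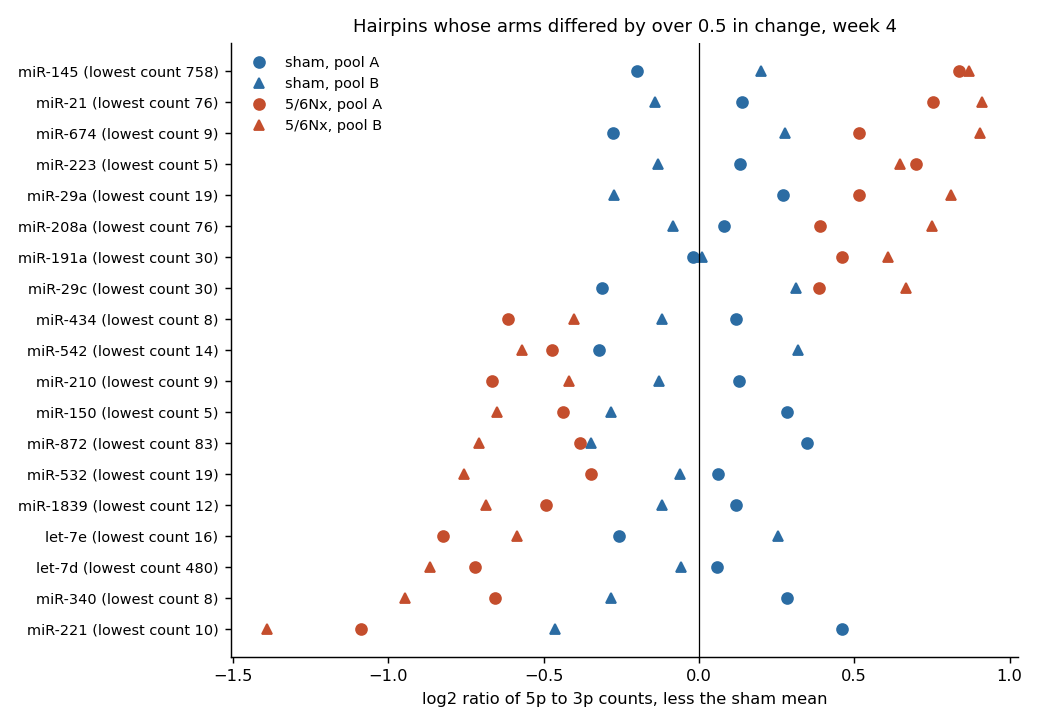
Log2 ratio of 5p to 3p counts in each week 4 library, less the mean of the sham pools, for the 19 hairpins whose group means differed by more than 0.5; blue points are sham, red points 5/6Nx, and the lowest count of either arm stands beside each name. The red points of miR-145 and miR-21 lie above 0.7 and those of let-7d below -0.7, with the highest counts at miR-145 and let-7d.

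Among the remaining miRNAs with the smallest p-values and no overlap, those above sham were miR-542-3p (log2 change 0.61), miR-125b-1-3p (0.58), miR-335 (0.87), miR-145-5p (0.30), miR-19b-3p (0.49), miR-301a-3p (0.26) and miR-148b-3p (0.27). Those below sham were miR-3571 (-0.53), miR-3596c (-0.45), miR-201-5p (-0.52), miR-674-3p (-0.57) and miR-7a-5p (-1.05), besides miR-499 and miR-34a-5p. edgeR adjusted p-values of these 12 ran from 0.425 to 0.826. Of these, miR-3571 lies on the strand opposite miR-1-3p (log2 change -0.51) and is largely its reverse complement. Whether the entries share reads was not tested, so miR-3571 may not be a separate change. miR-542-3p, of the X-linked cluster that also holds miR-322 and miR-503, stood at 66 and 72.2 CPM in sham and at 94.7 and 116.4 CPM in 5/6Nx. miR-7a-5p was scarce, with 8 to 14 counts per library.

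Of the markers of other organs, 7 were tested, and miR-192-5p was the most abundant of them. All 7 lay below sham, 6 of 7 with DESeq2 size factors. The median log2 change was -0.45 (-0.38 with DESeq2 size factors). In 4 of the 7 the pools did not overlap, an order that 28.4% of all miRNAs tested showed. The lowest log2 change of the 7, -0.85 at miR-200a-3p, belongs to a scarce miRNA, with 2.32 to 5.28 CPM. The kidney and gut miRNA miR-192-5p stood at 2100 and 1968 CPM in sham and at 1892 and 1825 CPM in 5/6Nx. The arms of the endothelial miR-126a lay on different sides: miR-126a-3p stood at 5173 and 5942 CPM in sham and at 5151 and 5019 CPM in 5/6Nx. The more abundant miR-126a-5p overlapped, at 40550 and 43880 CPM in sham and at 39070 and 54510 CPM in 5/6Nx. The red cell miRNAs overlapped in all 3 tested members. None of these marker miRNAs passed the test over 16 libraries, and their part in the change of let-7d-5p was not tested.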

How the data were processed

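Small RNA libraries were prepared with the TruSeq kit from pools of rats and sequenced on an Illumina HiSeq, per the labels' protocols. Reads were processed with cutadapt, Bowtie and DESeq, per the submitters' processing notes. Settings, genome build, annotation and strand handling were not given in the sources used here. The deposited tables, one per week, hold raw counts per entry, and the p-values of the authors' own tests stand in the authors' deposited table of week 4. Sham and 5/6Nx columns were matched to groups by name. A deposited table of read totals was not used, because its pool numbers are not tied to the pool letters.

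Counts of rat miRNAs listed in all 4 tables were fitted with edgeR 4.0.16 (R 4.3.3; TMM scaling, filterByExpr with a minimum count of 10, quasi-likelihood F test, two-sided) over 16 libraries in 8 groups, with 8 residual degrees of freedom and Benjamini-Hochberg adjustment over all 306 miRNAs. Values of CPM follow TMM. Entries of other species and loci stayed out of library sizes because they can repeat reads. DESeq2 1.42.0, limma-voom (limma 3.58.1), other scalings, filters, library subsets, and leaving out each library in turn were alternatives. The fits were checked on simulated counts with a single dispersion and planted changes larger than that of let-7d-5p. That check does not cover smaller changes. Log2 changes are shrunk slightly by edgeR's prior count at low levels.

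Families share bases 2 to 8 of RefSeq mature sequences, found for 321 of 358 entries, and otherwise share a name. Named are miRNAs past the threshold in either test, the 10 with smallest p in each direction among those with no overlap of pools, the 10 most abundant, let-7 members, the extremes of families and clusters, and fixed heart miRNAs; those called with the week 4 libraries alone are added after seeing their values. The members, lists and tests were chosen with earlier results of these data known. Pool letters do not pair samples: deviations of same-letter pools correlated with r = -0.09 at week 4. Labels do not say that pools shared no handling, so p-values measure the spread between pools.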

Additional observations from a re-analysis of the deposited data

Results flagged for a closer look

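The changes of let-7d-5p, miR-3596b, miR-21-3p, miR-34a-5p and miR-223-3p stand out because their log2 change at week 4 differed from the mean change of weeks 2, 5 and 7 in a test of that difference. The differences were -0.82 for let-7d-5p, -0.82 for its mirror miR-3596b, -1.93 for miR-21-3p, -0.86 for miR-34a-5p and -1.01 for miR-223-3p. miR-21-3p, miR-34a-5p and miR-223-3p did not pass the test at week 4 itself.

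Outside the miRNAs, 8 of 384 genomic loci (the 386 listed, less 2 rows that repeat a single locus name) had no count in both sham pools of week 4 and 10 or more counts in both 5/6Nx pools, from 12 and 10 up to 408 and 304 counts. They stand out because the report's comparisons do not use loci. For 2 loci the reverse held, with 17 and 72 counts in sham for the smaller and 316055 and 471892 for the larger, and 0 in both 5/6Nx pools. Of the 8, 1 had a neighbouring entry within 100 bases with counts in sham. Neighbouring entries were not looked up for the 2 loci at 0 in 5/6Nx, so whether their reads fell under another entry was not tested. How loci were delimited is not given in the sources used here.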

How the results depend on the processing

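For the week 4 comparison, 2 miRNAs were called with DESeq2 size factors, library sizes without the 5 most abundant miRNAs, DESeq2, limma-voom, no filter on low counts, the other species and loci added, and a replicate block by pool letter (2 called). The count was 15 with the week 4 libraries alone and 0 with weeks 2, 4 and 5, where let-7d-5p had a log2 change of -0.74 and an adjusted p of 0.0571 and 21 miRNAs were at an unadjusted p under 0.05. Leaving out 1 library at a time gave 0 to 4 calls: 0 without sham pool A (15 unadjusted) or 5/6Nx pool B (9 unadjusted) of week 4, and 4 without sham pool B of week 5. Over these the log2 change of let-7d-5p ran from -0.91 to -0.65. The difference of week 4 from the other weeks moved more: 5 calls became 3 with DESeq2 size factors, 3 with no filter, 0 with library sizes without the 5 most abundant, 0 with other species and loci, and 0 with the replicate block, and 0 to 25 when single libraries were left out. For let-7d-5p this difference was -0.69 without the 5 most abundant (adjusted p = 0.0811), -0.70 with other species and loci (0.0945), -0.82 with the replicate block (0.0504), and -0.91 to -0.63 when single libraries were left out. No called miRNA changed direction under any of these. With 2 pools per group and a median SE of 0.26 on the log2 scale, changes of the size most families showed could not be told apart from the spread between pools, and the depth of 1600062 counts limits miRNAs near 10 counts in sham pool A.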
